A study of Mus musculus with 10 samples.

Results

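Matrix proteases and their inhibitors were read in regenerating muscle as 52 genes, out of 25700 genes counted. They are the protein-coding genes named Mmp, Timp, Adamts or Adam with a number that reached 10 counts in at least 5 of the 10 mice. Of 78 genes with such names, 17 of 22 Mmp, 4 of 4 Timp, 18 of 19 Adamts and 13 of 33 Adam genes met this rule, which uses the level and not the genotype. The study injected cardiotoxin (CTX), a toxin that destroys muscle fibers and starts their regeneration, into the tibialis anterior (TA) of C57BL/6 male mice aged 12 weeks, and took the muscle at day 6. It compared 5 Pax7Cre mice, given as wild type in the labels, with 5 miR-501KO mice, given as miR-501 -/- in the labels and as Pax7Cre miR-501fl/Y in the series' design, to ask which genes change when this microRNA is deleted. Both groups carry Pax7Cre, a non-inducible Cre driven from the *Pax7* locus. The deletion is therefore directed at the myogenic lineage, while fibroblasts, immune cells and vessels of the same muscle are expected to keep the microRNA. The study also describes a global knockout, which is not the genotype that the series' design gives here.

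Matrix metalloproteinases (MMPs) are zinc enzymes that cut collagens, elastin and other proteins around cells. Most are secreted as inactive precursors, and a few sit in the membrane. Tissue inhibitors of metalloproteinases (TIMPs) bind the active site of MMPs and of some ADAMs. ADAMs are membrane proteins, several of which shed growth factors, cytokines and Notch proteins from the cell surface, and ADAMTS enzymes are secreted proteases that trim procollagens or cleave proteoglycans such as versican. In injured muscle these enzymes are known from macrophages, fibroblasts and myogenic cells, which clear debris, remodel the matrix and migrate or fuse within it.

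Each mouse gave 18609222 to 24753258 counts, of which 0.260% to 0.410% fell on the 52 genes, and the deleted microRNA has no line among the counts, so the deletion was not checked here. Values are CPM, counts scaled to the effective size of each library, and the number of a mouse only names it. Pax7Cre 2 stood apart on the first principal component of all genes, which held 33.0% of the variance, at 43.9, while the other mice lay between -27.5 (Pax7Cre 4) and 16.9 (miR-501KO 4). Pax7Cre 3 stood apart on the second, which held 17.2%, at -33.6 beside -6.31 to 15.2 in the other mice. In Pax7Cre 2 the summed CPM of 8 mature fiber markers (*Myh4*, *Ckm*, *Pvalb* and others) was 42290, against 15680 to 32430 in the others, and it had the lowest sums for macrophage markers (3424, others 3628 to 4713), fibroblast markers (13430, others 13910 to 18490), myogenic progenitor markers (297.8, others 361.3 to 502.2) and regenerating fiber markers (2088, others 2227 to 3202). Pax7Cre 2 was also lowest for tendon markers (131.9, others 153.3 to 234.6) and for smooth muscle and pericyte markers (1059, others 1138 to 1439). It was highest for T cell markers (23.1, others 8.16 to 18.8) and Schwann cell markers (52.2, others 28.0 to 48.2). The macrophage sum was mostly *Lyz2*, with means of 2822 CPM in Pax7Cre and 2778 CPM in miR-501KO mice. The fibroblast sum was mostly *Col1a1* (7239 and 7309 CPM) and *Col3a1* (7913 and 7729 CPM), so both sums say little about their other markers. The mitochondrial share of counts was highest in Pax7Cre 2 (14.0%), followed by miR-501KO 4 (12.7%), and lowest in Pax7Cre 4 (6.59%). The part these measures play in the values below was not tested. In bulk muscle, fewer cells of a type and less RNA per cell cannot be told apart. The tissue label held in every mouse, with *Myh3* of regenerating fibers at 13547 to 33348 counts and *Pax7* at 385 to 645 counts.

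The deleted precursor gives 2 mature microRNAs, and their seeds, bases 2 to 8, are printed in capitals because these bases pair with target messages. The sequences are from RefSeq (GRCm38.p6). miR-501-3p lies at chrX:7241270-7241291 and miR-501-5p at chrX:7241307-7241328, both on the minus strand.
miR-501-3p: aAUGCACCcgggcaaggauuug
miR-501-5p: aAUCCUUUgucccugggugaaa
The letters that pair with the miR-501-3p seed, GGTGCAT, were searched on the sense strand of every annotated 3′ untranslated region (UTR) of protein-coding transcripts. They were present in 8 of the 52 protease and inhibitor genes (15.4%) and in 7.52% of the 13989 tested genes that have a 3′ UTR. The longest 3′ UTR of a gene had a median of 1775 bases among the 52 and of 1176 bases among all of them. Each match is shown with its neighbouring bases, with the 7 matching letters in capitals, since it is what a reader would inspect first in a microRNA knockout. All lie in 3′ UTR sequence of GRCm38, and positions are those of the capitals.
*Adam11*, chr11:102778970-102778976, plus strand: gtccctgccagGGTGCATgcattcggggg
*Adam23*, chr1:63595678-63595684, plus strand: cagtacacataGGTGCATgtttgaaacat
*Adamts3*, chr5:89677297-89677303, minus strand: cctccctgcatGGTGCATacagcttgtta
*Adamts9*, chr6:92774502-92774508, minus strand: ccttgaatttgGGTGCATctgtgtgcgtg
*Adamts16*, chr13:70728512-70728518, minus strand: agcaaatgctgGGTGCATttcttaaaaga
*Mmp15*, chr8:95374385-95374391, plus strand: tggtgaactggGGTGCATctgaggtccgt
*Mmp19*, chr10:128800529-128800535, plus strand: ctgggtatggtGGTGCATgcctttagtcc
*Mmp27*, chr9:7581618-7581624, plus strand: tgcacaagcatGGTGCATagacatataca
The log2 fold changes of these 8 genes, miR-501KO against Pax7Cre, ran from -0.14 for *Adam11* to 0.29 for *Adamts3* with a median of 0.0073, and the median over all tested genes with such a match was -0.010. *Mmp19* was at 0.16 (SE 0.082), *Adamts9* at 0.028 (SE 0.11) and *Mmp15* at 0.0039 (SE 0.12). None of the 8 passed a threshold of 0.05, adjusted or not. Letters matching the miR-501-5p seed, AAAGGAT, were in 6 of the 52 genes (11.5%) and in 13.6% of all genes with a 3′ UTR. The 6 were *Adam1a*, *Adamts5*, *Adamts9*, *Adamts12*, *Adamts18* and *Mmp3*. Their median log2 fold change was -0.11, and that of all tested genes with such a match was -0.0055. None of the 6 passed the threshold of 0.05, adjusted or not. The study takes the 5p arm as not expressed in activated myogenic progenitors, so matches to it are given for completeness of the locus. A match is only a stretch of letters and was not tested for pairing.

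The highest levels per length were those of an MMP, its membrane activator and their inhibitors. Divided by the length of all annotated exons, *Mmp2* (gelatinase A) stood at 162 ± 17.1 CPM per kb (mean ± SD, n = 10 mice), *Timp2* at 140 ± 13.4, *Mmp14* (MT1-MMP) at 86.8 ± 10.5, *Timp1* at 77.2 ± 19.8 and *Mmp13* (collagenase 3) at 31.6 ± 8.37. Both gelatinase A and Timp2 thus lay above *Mmp14* in every mouse. *Adam9* followed with 29.2 ± 2.05, then *Adam19*, *Adam10*, *Adam15* and *Adamts2* between 15 and 17.3 CPM per kb. In all, 17 genes had 10 or more CPM per kb, 17 had 1 to under 10 and 18 had less than 1, down to *Adamts18* (0.0686) and *Adamts19* (0.0634). Between neighbours in this order the mice mostly overlapped: in 3 of 51 neighbouring pairs the lowest mouse of the higher gene stood above the highest mouse of the lower gene, among them *Timp2* over *Mmp14* and *Adam9* over *Adam19*. Exons of unused transcripts lower a gene's value on this scale.

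**Figure D1:**
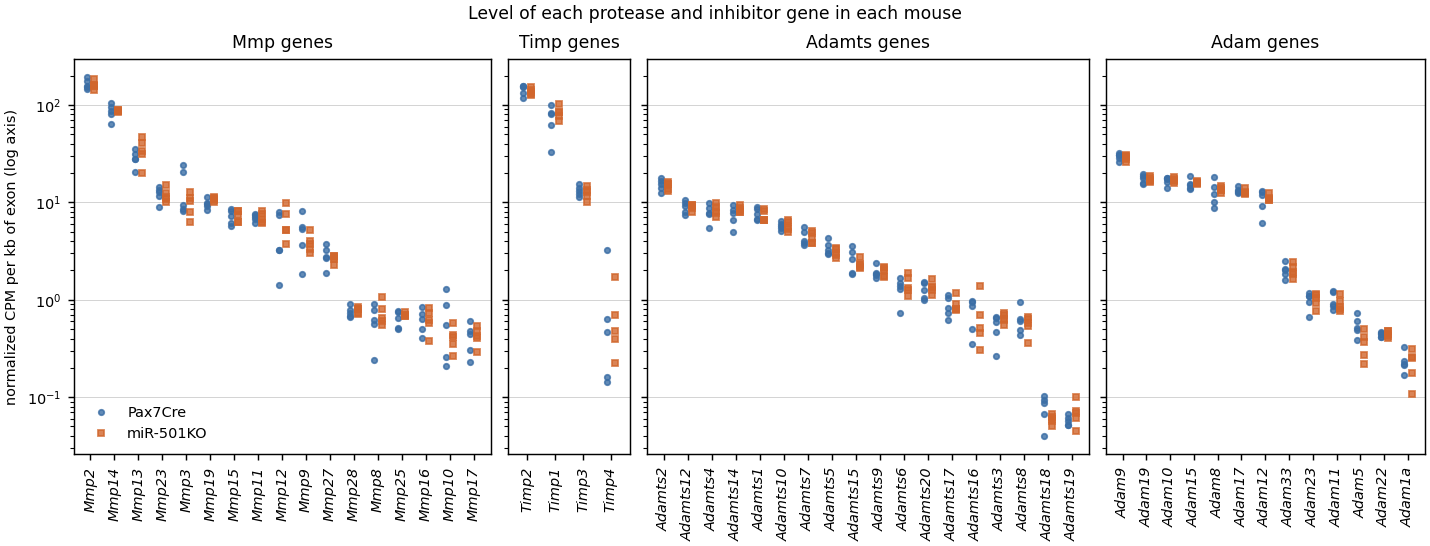
Normalized CPM per kb of exon (log axis) of the 52 genes in each of 5 Pax7Cre (circles) and 5 miR-501KO mice (squares), by family and falling mean. *Mmp2* and *Timp2* are at the top in both genotypes, and *Timp4* (22.8-fold), *Mmp12* (7.02-fold) and *Mmp10* (6.15-fold) have the widest range over the 10 mice.

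Between the genotypes, none of the 52 genes passed an adjusted p of 0.05. With edgeR's quasi-likelihood test fitted over 14410 genes and Benjamini-Hochberg adjustment, the smallest adjusted p among them was 1.00, and 0 genes (0%) passed in the whole table, where 55 (0.382%) were higher and 96 (0.666%) lower in miR-501KO mice at an unadjusted p under 0.05. Without Pax7Cre 2 these were 267 higher and 186 lower, without Pax7Cre 4 they were 228 and 242, and without miR-501KO 1 they were 39 and 59, so the count over all genes and its balance depended on single libraries. DESeq2's Wald test also gave 0 adjusted calls, with 52 genes higher and 98 lower unadjusted. Of the 52 genes, 0 were higher and 1, *Adam5*, was lower at that unadjusted level, which is 1.92% of them. Estimates lay above 0 for 25 genes and below 0 for 27, so that 48.1% were above 0 beside 47.9% of all genes tested. Their median log2 fold change was -0.0034, and that of all genes was -0.0042. By family the median was 0.020 for Mmp, -0.062 for Timp, -0.0045 for Adamts and -0.0037 for Adam genes. In no gene were the 5 miR-501KO mice all above or all below the 5 Pax7Cre mice, which was so for 0.0625% and 0.0763% of all genes. The 52 genes together came to 3395 ± 332 CPM in Pax7Cre and 3394 ± 106 CPM in miR-501KO mice (SD, n = 5 each). A miss of the threshold does not show equal levels. Standard errors ran from 0.068 to 0.77, and a difference had to be well above its standard error to be called. *Mmp19*, at 0.16 with SE 0.082, had an unadjusted edgeR p of 0.0699.

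**Figure D2:**
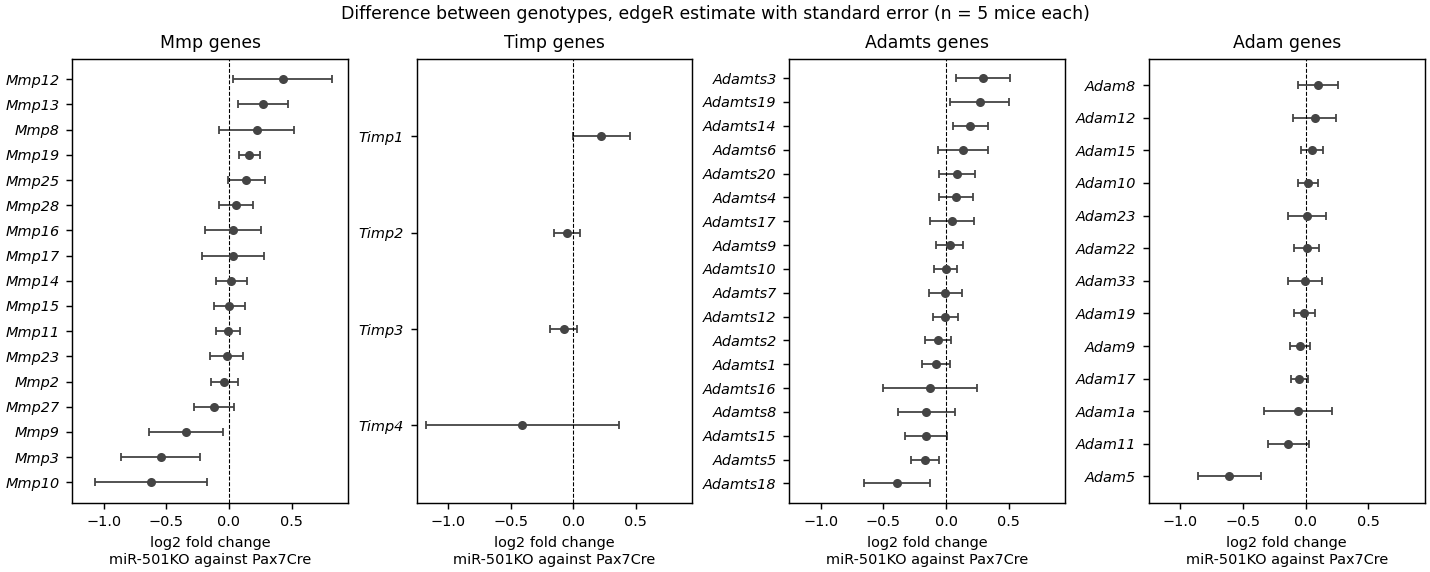
Log2 fold change of each gene, miR-501KO against Pax7Cre, with its standard error from edgeR (horizontal bar), in 4 panels by family (5 mice per genotype). Most estimates lie near the dashed line at 0, and the widest bars belong to *Timp4* (SE 0.77), *Mmp10* (SE 0.45) and *Mmp12* (SE 0.40).

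*Mmp2*, *Mmp14* and *Timp2* form a known unit, in which Timp2 holds the precursor of Mmp2 to the membrane protease Mmp14 for activation. *Mmp2* (chr8:92827291-92853420, plus strand) was at 486.5, 523.4, 587.6, 518.3 and 651.5 CPM in Pax7Cre 1 to 5, and at 475.6, 545.2, 626.1, 527.7 and 526.0 CPM in miR-501KO 1 to 5. The ranges overlapped over most of their width, with a log2 fold change of -0.04 (SE 0.11). *Timp2* had 514.9, 463.2, 589.9, 604.3 and 605.9 CPM in Pax7Cre mice and 504.6, 600.6, 558.5, 495.3 and 530.7 CPM in miR-501KO mice, a log2 fold change of -0.05 (SE 0.10). *Mmp14* (chr14:54431612-54445364, plus strand) was spread from 379.4 CPM in Pax7Cre 2 to 626.6 CPM in Pax7Cre 5, with 512.2, 481.6 and 566.9 CPM in Pax7Cre 1, 3 and 4. In miR-501KO 1 to 5 *Mmp14* was at 514.6, 527.8, 518.3, 508.1 and 534.6 CPM. Its means were alike, 513 ± 93.1 and 521 ± 10.6 CPM (log2 fold change 0.02, SE 0.12), while the coefficient of variation was 18.1% in Pax7Cre and 2.03% in miR-501KO mice. Without Pax7Cre 2 it was 11.7% in the other 4 Pax7Cre mice and the log2 fold change of *Mmp14* was -0.07. The other membrane-type MMPs were much lower per length, with *Mmp15* at 7.20, *Mmp25* at 0.670, *Mmp16* at 0.624 and *Mmp17* at 0.420 CPM per kb, and their log2 fold changes lay between 0.0039 and 0.14.

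*Timp1*, an inhibitor that many cells induce upon injury, was at 72.7, 29.1, 71.4, 88.3 and 54.7 CPM in Pax7Cre 1 to 5 and at 89.9, 75.0, 75.9, 60.2 and 68.4 CPM in miR-501KO 1 to 5. Pax7Cre 2 was below all other mice and the groups overlapped (log2 fold change 0.22, SE 0.23; exact permutation p = 0.365). The log2 fold change of *Timp1* was 0.04 without Pax7Cre 2, 0.38 without Pax7Cre 4 and 0.14 without miR-501KO 1. *Timp3*, which binds to the matrix and also inhibits several ADAM and ADAMTS proteases, was at 92.9, 125, 106, 99.1 and 114 CPM in Pax7Cre and at 94.5, 81.9, 105, 119 and 109 CPM in miR-501KO mice, with a log2 fold change of -0.08 (SE 0.11). Here Pax7Cre 2 was the highest of all. *Timp4*, known from heart and skeletal muscle, was at 3.72, 19.2, 0.951, 0.842 and 2.74 CPM in Pax7Cre and at 2.84, 2.31, 1.33, 10.1 and 4.11 CPM in miR-501KO mice, a 22.8-fold range over 18 to 364 counts. The 2 mice with the highest *Timp4*, Pax7Cre 2 and miR-501KO 4, were also those with the highest mature fiber sums (42290 and 32430 CPM), whose part was not tested. The log2 fold change of *Timp4* was -0.41 (SE 0.77), and without Pax7Cre 2 it was 0.98 with an unadjusted edgeR p of 0.103, so 1 mouse sets its sign. *Timp1*, *Timp3* and *Timp4* lie within *Syn1*, *Syn3* and *Syn2* on the opposite strand. The hosts had 11 to 56, 0 to 5 and 77 to 194 counts per mouse. The library kit marks strand and the strand setting of the counting is not given in the sources used here. The span of *Timp4* from start to end touches 6 exon entries of *Syn2*, counted over all annotated transcripts of *Syn2*. Overlap of exons with exons was not computed, so whether reads of both genes could be mixed was not tested.

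**Figure D3:**
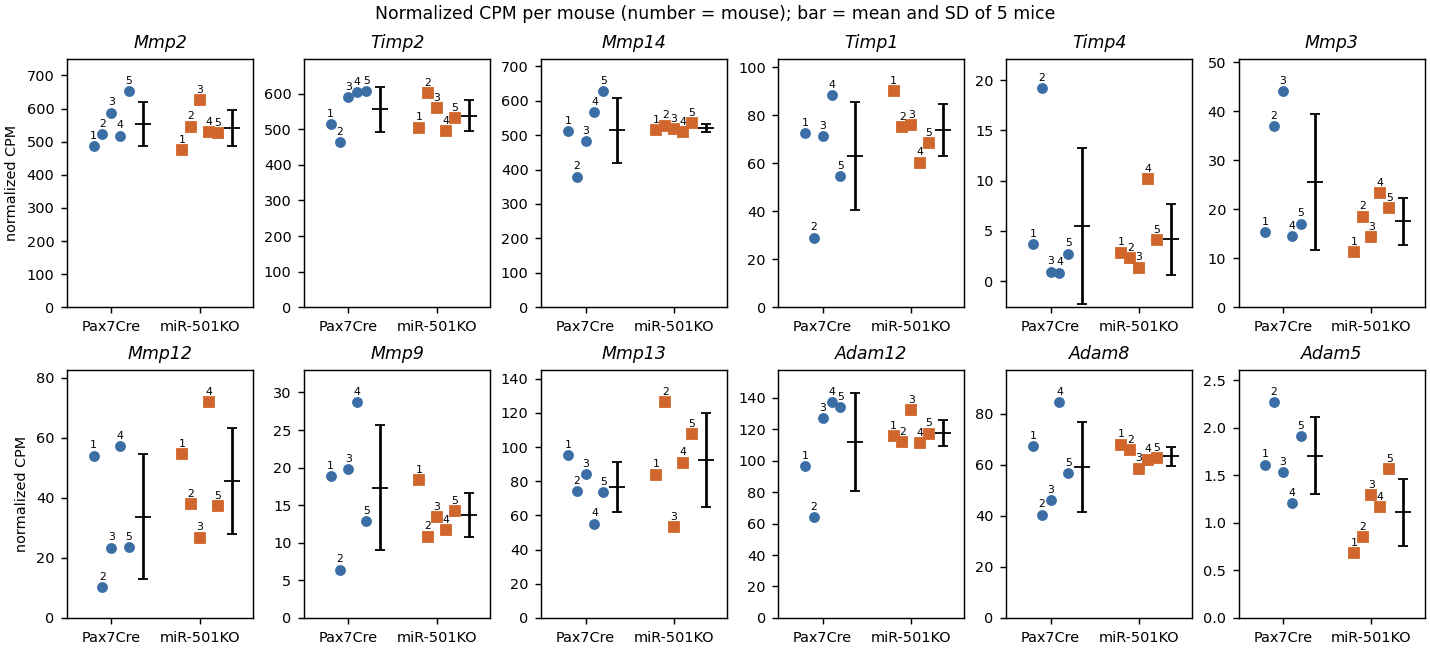
Normalized CPM of 12 of the genes in each of 5 Pax7Cre (circles) and 5 miR-501KO mice (squares), numbered by mouse, with mean and SD beside each group. Pax7Cre 2 is lowest for *Mmp14*, *Timp1*, *Timp2*, *Mmp12*, *Mmp9*, *Adam12* and *Adam8* and highest for *Timp4* and *Adam5*.

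6 of the Mmp genes lie in a row on the plus strand of chromosome 9, in the order *Mmp13*, *Mmp12*, *Mmp3*, *Mmp10*, *Mmp8* and *Mmp27*, within 309 kb (chr9:7272514-7581885, GRCm38). Promoter windows, from 250 bases before to 50 after the gene's start in RefSeq (GRCm38.p6), were at hand for 33 of the 52 genes and were searched for TGANTCA, a letter pattern bound by AP-1 that reads the same on both strands. It was in 5 of these 33 genes (15.2%) and in 8.97% of all 27025 genes with a window. 4 of the 5 are in the chromosome 9 row, which is why they are shown, with the pattern in capitals and its first base 35 to 63 bases before the start. In *Adam19* it lies 131 bases before. No motif other than this one was searched.
*Mmp13*, chr9:7272468-7272496: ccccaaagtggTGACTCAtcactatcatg
*Mmp12*, chr9:7347319-7347347: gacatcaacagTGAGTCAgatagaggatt
*Mmp3*, chr9:7445765-7445793: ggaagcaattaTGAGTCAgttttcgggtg
*Mmp10*, chr9:7502268-7502296: tagcacccatgTGAGTCAtgcttagtgac
*Adam19*, chr11:46055842-46055870: tgtccttcaccTGAGTCAgcgatgctccc
The genes of this row differed in which mice were high. *Mmp3*, stromelysin 1, was high in Pax7Cre 2 and Pax7Cre 3, at 36.9 and 44.0 CPM, and at 15.4, 14.5 and 17.1 CPM in Pax7Cre 1, 4 and 5. In miR-501KO 1 to 5 it was at 11.3, 18.5, 14.4, 23.3 and 20.2 CPM, within the span of the Pax7Cre mice but for its lower end. Its log2 fold change was -0.54 (SE 0.32; exact permutation p = 0.317), and -0.26 without Pax7Cre 3. *Mmp10*, stromelysin 2, was highest in the same 2 Pax7Cre mice, at 1.53 and 2.22 CPM, on 9 to 42 counts per mouse (log2 fold change -0.62, SE 0.45). *Mmp12*, the macrophage elastase, was instead lowest in Pax7Cre 2, at 10.2 CPM, and reached 54.0, 23.4, 57.2 and 23.6 CPM in Pax7Cre 1, 3, 4 and 5. In miR-501KO mice it was at 54.4, 37.8, 26.7, 71.8 and 37.3 CPM (log2 fold change 0.43, SE 0.40). Its 7.02-fold range stands beside a range of 3424 to 4713 CPM for the summed macrophage markers, a sum made up mostly of *Lyz2*. *Mmp1b*, with 0 to 1 count per mouse, overlaps *Mmp12* on the opposite strand. *Mmp13*, a collagenase of connective tissue cells, was at 95.2, 74.3, 84.2, 55.3 and 73.7 CPM in Pax7Cre and at 84.0, 126, 53.3, 90.96 and 108 CPM in miR-501KO mice (log2 fold change 0.27, SE 0.20). The lowest *Mmp13* values were those of Pax7Cre 4 and miR-501KO 3, without which the log2 fold change was 0.18 and 0.42, and without miR-501KO 2, the highest, it was 0.13. *Mmp8*, the neutrophil collagenase, had 11 to 65 counts per mouse. *Mmp27* was at 4.17 to 8.35 CPM.

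*Mmp9*, gelatinase B, was at 18.9, 6.44, 19.8, 28.7 and 12.8 CPM in Pax7Cre 1 to 5, and at 18.3, 10.8, 13.4, 11.7 and 14.2 CPM in miR-501KO 1 to 5. Pax7Cre mice held both the lowest and the highest value. The log2 fold change was -0.34 (SE 0.30; exact permutation p = 0.373), and without Pax7Cre 2 it was -0.55 (SE 0.20) with an unadjusted edgeR p of 0.0161 and an adjusted p of 1.00. Without Pax7Cre 4, the highest mouse, it was -0.08 with an unadjusted edgeR p of 0.763, so its size rested on these 2 mice. Neutrophils are a textbook source of *Mmp8*, *Mmp9* and *Mmp25*, and 5 of their 6 markers had low counts, with 0 to 1 count of *Ly6g*, 0 to 3 of *Camp*, 5 to 35 of *Retnlg* and 7 to 37 of both *S100a8* and *S100a9* per mouse. The sixth, *Csf3r*, which macrophages also express, had 476 to 868 counts. The sum of all 6 was 31.3 to 36.8 CPM in Pax7Cre and 28.3 to 36.7 CPM in miR-501KO mice, of which *Csf3r* made up 31.4 and 30.7 CPM on average. The part of neutrophils in these values was not tested. *Mmp19*, a broadly expressed MMP, was at 29.8, 32.2, 33.6, 34.8 and 40.1 CPM in Pax7Cre and at 35.5, 37.4, 40.2, 39.3 and 38.5 CPM in miR-501KO mice. 4 of the Pax7Cre mice were below all miR-501KO mice and Pax7Cre 5 was among the highest. Of the genes that had a higher estimate in miR-501KO mice, *Mmp19* had the smallest p (log2 fold change 0.16, SE 0.082, unadjusted edgeR p = 0.0699, exact permutation p = 0.0714). *Mmp11*, an MMP that is activated inside the cell by furin, was steady, at 17.2 to 22.8 CPM.

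Of the ADAM genes linked to muscle cell fusion or shedding, *Adam9*, *Adam10*, *Adam12*, *Adam17* and *Adam19* had log2 fold changes between -0.05 and 0.07. *Adam8* was at 0.10. *Adam12* and *Adam19* (meltrins alpha and beta) are known from fusing myoblasts. *Adam12* was at 96.7, 64.2, 127, 137 and 134 CPM in Pax7Cre and at 116, 112, 132, 111 and 117 CPM in miR-501KO mice, so that Pax7Cre 2 was lowest and the groups overlapped (log2 fold change 0.07, SE 0.17; -0.08 without Pax7Cre 2). *Adam19* was at 110, 111, 134, 126 and 138 CPM in Pax7Cre and at 121, 116, 134, 117 and 127 CPM in miR-501KO mice, with a log2 fold change of -0.01 (SE 0.084). *Adam10*, which cuts Notch at the cell surface, was at 82.0 ± 7.56 and 83.2 ± 4.93 CPM (SD, n = 5), with 80.1, 69.7, 87.9, 87.1 and 85.5 CPM in Pax7Cre 1 to 5 and 85.3, 81.3, 90.1, 76.8 and 82.3 CPM in miR-501KO 1 to 5. Pax7Cre 2 was the lowest. *Adam17*, the enzyme that releases TNF and EGF receptor ligands, was at 93.8, 91.3, 105, 95.4 and 90.1 CPM in Pax7Cre and at 99.6, 90.2, 91.95, 88.1 and 89.9 CPM in miR-501KO mice, and its highest mouse was 1.19 times its lowest. *Adam9* was at 118, 108, 126, 132 and 127 CPM in Pax7Cre and at 115, 106, 124, 126 and 120 CPM in miR-501KO mice, which overlapped. In these 3 genes the log2 fold changes lay between -0.05 and 0.02, with SE up to 0.079. *Adam8*, a protease of myeloid cells, was at 67.1, 40.4, 46.2, 84.5 and 56.8 CPM in Pax7Cre mice. In miR-501KO mice *Adam8* was at 67.8, 65.8, 58.4, 62.0 and 62.4 CPM (log2 fold change 0.10, SE 0.16). Here too the Pax7Cre mice lay on both sides of the miR-501KO mice.

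*Adam5* (chr8:24727093-24824369, minus strand), an ADAM known mainly from the testis, was the only one of the 52 genes with an unadjusted p under 0.05. It was at 1.61, 2.27, 1.53, 1.20 and 1.91 CPM in Pax7Cre 1 to 5 and at 0.680, 0.850, 1.29, 1.17 and 1.57 CPM in miR-501KO 1 to 5, on 17 to 43 counts per mouse. 3 miR-501KO mice were below all Pax7Cre mice and the other 2 were within their range. Means were 1.71 ± 0.403 and 1.11 ± 0.353 CPM (SD, n = 5), with a log2 fold change of -0.61 (SE 0.25, unadjusted edgeR p = 0.0316, adjusted p = 1.00, exact permutation p = 0.0476). All 5 miR-501KO mice were below the Pax7Cre mean. The unadjusted p rose to 0.0801 without Pax7Cre 2, 0.0654 without Pax7Cre 5, 0.0801 without miR-501KO 1 and 0.0737 without miR-501KO 2, so its call rested on each of these 4 mice, while the log2 fold change stayed between -0.56 and -0.47. The count of 1 such gene of 52 stands beside 0.666% of all genes.

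The ADAMTS genes were led by the enzyme that trims fibrillar procollagens. *Adamts2*, a procollagen N-propeptidase, was at 116, 132, 146, 155 and 166 CPM in Pax7Cre and at 122, 143, 150, 127 and 143 CPM in miR-501KO mice (log2 fold change -0.06, SE 0.10). Its relatives with the same substrate class, *Adamts14* and *Adamts3*, had higher estimates in miR-501KO mice, 0.19 (SE 0.14) and 0.29 (SE 0.22), neither past the threshold. *Adamts14* was at 34.0, 26.0, 40.0, 49.2 and 43.7 CPM in Pax7Cre mice and at 43.6, 41.7, 45.0, 41.5 and 49.2 CPM in miR-501KO mice. Its log2 fold change was 0.08 without Pax7Cre 2, the lowest mouse, and 0.30 without Pax7Cre 4, the highest. *Adamts1*, *Adamts4*, *Adamts5* and *Adamts9*, which cleave versican or aggrecan, had means of 40.8, 37.7, 37.2 and 28.9 CPM in Pax7Cre and of 38.5, 39.9, 33.1 and 29.5 CPM in miR-501KO mice. *Adamts5* had the smallest p of the lower ADAMTS genes (log2 fold change -0.17, SE 0.11, unadjusted edgeR p = 0.159, exact permutation p = 0.246). Its values were 32.6, 46.9, 39.3, 31.9 and 35.3 CPM in Pax7Cre and 32.7, 31.3, 28.8, 35.7 and 37.0 CPM in miR-501KO mice, with Pax7Cre 2 on top, and without this mouse the log2 fold change was -0.07. *Adamts1* and *Adamts5* are neighbours on chromosome 16, 53059 bases apart, as are *Adamts15* and *Adamts8* on chromosome 9, 20109 bases apart. *Adamts1* was at 35.3, 45.5, 35.6, 40.1 and 47.5 CPM in Pax7Cre and at 34.5, 34.9, 34.5, 45.2 and 43.5 CPM in miR-501KO mice. In *Adamts5*, *Adamts15* and *Adamts8*, but not in *Adamts1*, Pax7Cre 2 was the highest mouse. *Adamts4* was at 37.0, 26.3, 36.2, 46.9 and 42.1 CPM in Pax7Cre and at 37.1, 33.7, 46.9, 42.8 and 38.9 CPM in miR-501KO mice, lowest in Pax7Cre 2. *Adamts12*, which binds cartilage oligomeric matrix protein, was at 80.3, 86.6, 108, 99.5 and 114 CPM in Pax7Cre and at 86.9, 95.9, 102, 99.97 and 102 CPM in miR-501KO mice. Its means were 97.7 ± 14.2 and 97.3 ± 6.32 CPM, and its relative *Adamts7* at 27.6 ± 5.31 and 27.5 ± 3.65 CPM. *Adamts7* overlaps *Tbc1d2b* on the opposite strand. Overlap of their exons was not computed, so the counts of *Adamts7* may be less certain than those of genes that stand alone.

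Spread between mice of a genotype was more visible than a difference between genotypes. In 44 of the 52 genes (84.6%) the SD of CPM was larger in Pax7Cre mice, as it was in 79.5% of all genes tested. The median coefficient of variation of the 52 was 19.6% in Pax7Cre and 12.7% in miR-501KO mice, and 14.9% and 9.26% over all genes. Without Pax7Cre 2, 32 of the 52 genes (61.5%) and 68.6% of all genes had the larger SD in Pax7Cre mice, so the count depended on this library. Its values were the lowest of all mice for 18 of the 52 genes (34.6%), beside 21.8% of all genes, and the highest for 7 (13.5%), beside 23.3% of all genes. The 18 were *Timp1*, *Timp2*, *Mmp8*, *Mmp9*, *Mmp12*, *Mmp14*, *Mmp23*, *Mmp27*, *Adam8*, *Adam10*, *Adam12*, *Adam15*, *Adam23*, *Adamts3*, *Adamts4*, *Adamts6*, *Adamts7* and *Adamts14*. The 7 were *Timp3*, *Timp4*, *Mmp28*, *Adam5*, *Adamts5*, *Adamts8* and *Adamts15*. Pax7Cre 4, at the other end of the first component, was the highest mouse for 14 genes (26.9%, beside 18.1% of all) and the lowest for 3 (5.77%, beside 19.4%). For 8 genes, *Mmp9*, *Adam8*, *Adam12*, *Adam15*, *Adam23*, *Adamts4*, *Adamts7* and *Adamts14*, Pax7Cre 2 was lowest and Pax7Cre 4 highest of all 10 mice, which is 15.4% of the 52 beside 8.38% of all genes. Pax7Cre 4 also had the highest sum of myogenic progenitor markers (502.2 CPM) and the lowest of mature fiber markers (15680 CPM), and the part of these was not tested.

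**Figure D4:**
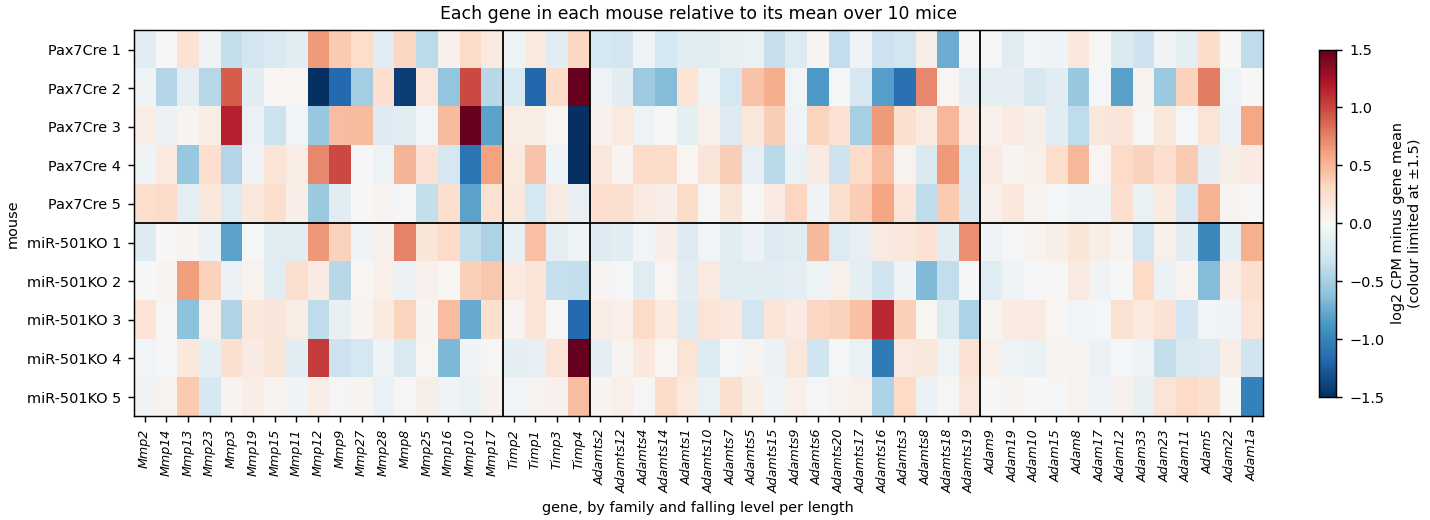
Log2 CPM of each gene in each mouse minus the gene's mean over 10 mice (red higher, blue lower, colour limited at ±1.5), with Pax7Cre mice above and miR-501KO mice below the line. Pax7Cre 2 is blue for *Mmp12*, *Mmp9*, *Mmp8* and *Timp1* and red for *Timp4*, and *Mmp3* and *Mmp10* are red in Pax7Cre 2 and most strongly in Pax7Cre 3.

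**Figure D5:**
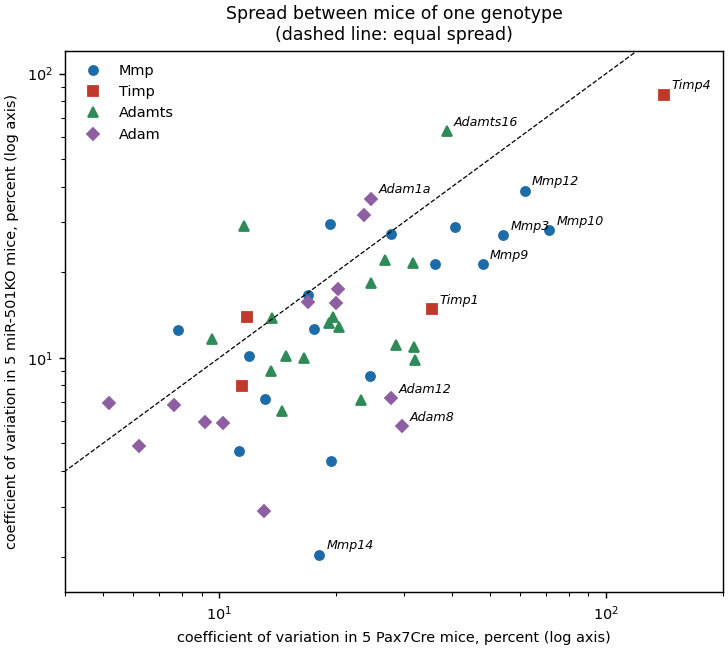
Coefficient of variation of each gene in 5 Pax7Cre (horizontal) and 5 miR-501KO mice (vertical), in percent on log axes, by family. Most points lie below the dashed line of equal spread, with *Mmp14* farthest below it (18.1% and 2.03%) and *Adamts19* (11.6% and 29.2%) farthest above it.

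Genes that act around these proteases were given by fixed lists of 69 genes, of which 57 passed the filter on low counts. Of these, 27 had higher and 30 lower estimates in miR-501KO mice, beside 47.9% of all genes with an estimate above 0. Of the 57, 0 passed the adjusted threshold, and 1, lower in miR-501KO mice, had an unadjusted p under 0.05, as 0.666% of all genes did. It was *Pcsk5*, a proprotein convertase, at 17.9 ± 2.95 CPM in Pax7Cre and 13.6 ± 2.39 CPM in miR-501KO mice (SD, n = 5; log2 fold change -0.39, SE 0.14, unadjusted edgeR p = 0.0144, adjusted p = 1.00, exact permutation p = 0.0397). *Furin*, the convertase that activates Mmp14 and ADAMs, was at 96.9 ± 26.9 and 104 ± 6.90 CPM. In the plasmin system *Plau*, *Plaur* and *Plat* were at log2 fold changes of 0.04 to 0.15, while plasminogen itself (*Plg*) had 0 to 4 counts per mouse. *Reck*, a membrane inhibitor of MMPs, was at -0.02 (SE 0.13), and *Rhbdf1* and *Rhbdf2*, the iRhoms that carry Adam17 to the surface, were at 0.07 and 0.11. Of 8 other metalloproteases of the matrix that were tested, 1 had a higher and 7 had lower estimates, with a median of -0.15, and none passed the unadjusted threshold. *Bmp1*, a procollagen C-proteinase, was at 0.01 (SE 0.095), and the farthest from 0 was *Pappa2* at -0.47 (SE 0.31). Of the 11 matrix substrates tested, 4 had higher and 7 lower estimates, with *Col1a1* at 0.01, *Fn1* at 0.07 and *Comp* at -0.29 (SE 0.17). Of the 11 shed substrates tested, 6 were higher and 5 lower in estimate, with *Cd44* at 0.26 (SE 0.14) and *Tnf* at 0.36 (SE 0.23), both short of the unadjusted threshold. The 5 Adamts-like genes lay between -0.15 and 0.11.

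At the low end, *Adamts18* (9 to 26 counts) and *Mmp10* (9 to 42 counts) were just inside the rule, and *Adam4* (7 to 15 counts, 10 or more in 4 mice) was just outside it. Of the 26 genes left out, 10 had no read in any mouse, all of them Adam genes, and 15 had at most 7 counts in a mouse. They included *Mmp7* (matrilysin) and *Mmp20* (enamelysin) among MMPs, *Adamts13*, the protease of von Willebrand factor, and *Adam2* and *Adam3*, which are known from sperm. A count of 0 allows up to 3 counts, which is 0.161 CPM in the smallest library and 0.121 CPM in the largest and covers counting error only.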

How the data were processed

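TA muscle RNA of 10 mice was sequenced from poly(A) libraries that keep strand (TruSeq Stranded mRNA, Illumina NovaSeq, single-end reads). Per the methods and the submitters' processing notes, the authors aligned reads with STAR to GRCm38.p5 and counted them with featureCounts, working in R 3.5.1. Tool versions, the strand setting and the treatment of reads matching several genes are not given in the sources used here. The authors deposited raw counts per gene and mouse, without normalization. The labels number the mice of each genotype from 1 to 5.

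From these counts, genes were matched by identifier to GENCODE M21 (25664 of 25700). The genes described and all gene lists were chosen with earlier results of these data known. In R 4.3.3, edgeR 4.0.16 kept 14410 genes (filterByExpr by genotype, minimum count 10, minimum total 15), applied TMM factors and compared genotypes with the quasi-likelihood test, adjusted over all of them. All 52 genes were kept. Levels are TMM-normalized CPM. Named genes also had an exact two-sided permutation test of mean CPM, whose smallest p is 0.00794. Genes named with all values were the 3 highest per length in each family, the smallest p in each direction per family, any with an unadjusted p under 0.05, and 16 chosen for their roles. Others are named for a level or a sequence feature, and *Mmp12* was given with all values after these were seen. Fold changes are log2 with SE. Mice of a genotype differed beyond counting noise (chi-square per degree of freedom at least 9.47), so none was a copy. On simulated data of 14334 genes, edgeR recovered 94.5% of 200 genes changed by a log2 fold change of 1, with 2.07% false among 193 calls. DESeq2 recovered 92% of them, with 9.36% false among 203 calls. The simulation gave genes of like level a common spread and had no mouse set apart over all genes. It therefore checks the procedure and does not give the power for these mice. Totals of 18609222 to 24753258 counts set the counting precision.

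The alternatives were DESeq2 1.42.0 size factors and Wald test, upper-quartile factors, no filter, 10 counts in every mouse, the likelihood ratio test, robust empirical Bayes, a replicate block and leaving out each mouse. The spread without Pax7Cre 2 and the share of gene pairs whose ratio separates the genotypes were added after seeing the data. Sites were searched in GRCm38 and promoter windows in RefSeq sequences; no RefSeq window was used for 19 genes. No protein sequences were used here. Of the listed genes, 1 is not reported here.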

Additional observations from a re-analysis of the deposited data

Results flagged for a closer look

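In a search for isolated mice among the 23 genes named by rule, a mouse was marked when its gap to the nearest mouse of its genotype, divided by the range of the 5 mice, was above Dixon's critical value of 0.71. Chance alone marks about 1 in 20 groups, or 2.3 of the 46 groups searched, and 2 were marked. *Timp4* in Pax7Cre 2 was at 19.2 CPM, with the other Pax7Cre mice between 0.842 and 3.72 CPM and a gap of 0.843 of the range. *Adam12* in miR-501KO 3 was at 132 CPM, with the other miR-501KO mice between 111 and 117 CPM and a gap of 0.718 of the range. Pax7Cre 2 is also the mouse with the highest mature fiber sum, whose part in its *Timp4* value was not tested.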

How the results depend on the processing

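No alternative gave any of the 52 genes an adjusted p under 0.05. At the unadjusted level, 0 genes were higher and 1 was lower. Leaving out each mouse in turn gave 0 to 1 higher and 0 to 2 lower, and a median log2 fold change of -0.043 to 0.033 (main -0.0034), so its sign is not set by these data. The single higher genes were *Adamts14* without Pax7Cre 4, *Mmp19* without Pax7Cre 5 and *Mmp13* without miR-501KO 3, and the lower ones besides *Adam5* were *Adamts18* without Pax7Cre 1, *Mmp9* without Pax7Cre 2 and *Mmp3* without Pax7Cre 4. With no filter on low counts, 153 genes of the whole table were higher and 159 lower unadjusted, against 55 and 96. With 10 counts in every mouse they were 36 and 100, and with the replicate block 87 and 102.

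The labels do not say that equal mouse numbers are pairs, and the data leave it unsettled. The correlation of deviations from the group means was 0.34, -0.15, 0.16, -0.30 and 0.20 for numbers 1 to 5, and 3 of 5 mice correlated best with their own number, so the mice were treated as sharing only a number. With the replicate block 1 gene was higher (*Mmp12*, log2 fold change 0.58), the median was 0.0065, and the estimates of *Adamts12* (0.0037) and *Timp4* (0.12) turned positive.

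Among the named genes, 9 had an estimate that changed sign on leaving out a mouse, none past a threshold. Over these settings the log2 fold change ran from -0.035 to 0.047 for *Adam10*, -0.076 to 0.16 for *Adam12*, -0.011 to 0.27 for *Adam8*, -0.051 to 0.029 for *Adam19*, -0.027 to 0.17 for *Adamts4*, -0.069 to 0.057 for *Adamts12*, -0.094 to 0.030 for *Mmp2*, -0.073 to 0.10 for *Mmp14* and -1.03 to 0.98 for *Timp4*. The causes were not tested. The rule asking for 10 counts in all mice would leave 50 genes, without *Adamts18* and *Mmp10*. For genes with few reads, such as *Adam5*, counting noise adds to the differences between mice.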

Other observations

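The ratio of the per-length levels of a protease and its inhibitor within the same mouse does not depend on library scaling. 4 such ratios were formed with the genes' values already known, so they are given without a test. *Mmp2* over *Timp2* was 0.991 to 1.31 over the 10 mice, at 1.16 ± 0.124 in Pax7Cre and 1.16 ± 0.101 in miR-501KO mice (SD, n = 5). *Mmp14* over *Timp2* was 0.602 ± 0.0653 and 0.635 ± 0.0427. *Mmp13* over *Timp1* ranged from 0.208 to 0.849, the highest in Pax7Cre 2. *Mmp9* over *Timp1* was 0.0651, 0.0556, 0.0696, 0.0817 and 0.0589 in Pax7Cre 1 to 5, and 0.0511, 0.0361, 0.0442, 0.0486 and 0.0522 in miR-501KO 1 to 5. The 5 miR-501KO values were below the 5 Pax7Cre values, Pax7Cre 2 included. Ratios separated the genotypes in one direction or the other for 4 of the 1326 pairs among the 52 genes (0.302%) and for 0.202% of all 103672800 pairs of tested genes with counts in every mouse, so nothing is read from this pair.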
